A study of Helicoverpa armigera with 6 samples.

Results

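Transcripts outside the annotation are RNAs that were assembled from the sequencing reads but do not match any gene model of the reference genome. The deposited table of *Helicoverpa armigera* (*H. armigera*, the cotton bollworm) holds 18203 genes, of which 1121 are such transcripts and 17082 are annotated genes. The transcripts described here were chosen by their expression. They are those with a mean of at least 10 FPKM in siNC larvae or in siHDAC3 larvae, where FPKM are sequenced fragments scaled by gene length and library size. This left 197 transcripts, which is 1.08% of all genes in the table, and 5577 annotated genes reached the same level. Because the FPKM of both groups chose the transcripts, their levels are a description. Of the 197, 106 reached 10 FPKM in both groups, 45 in siNC larvae only and 46 in siHDAC3 larvae only.

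In the study, larvae just molted to the 6th instar were injected with siNC, a control small interfering RNA (siRNA) directed against a *Caenorhabditis elegans* gene, or with siHDAC3, an siRNA directed against *HDAC3*. Both groups received 3 µL at 1 µg/µL, and no group without injection was sequenced. Whole larvae were taken for RNA, and each group has 3 libraries. The sources used here do not give the age of the larvae at collection, their sex or the number of larvae in a library. Nothing in the labels says that the 3 libraries of a group came from separate cohorts, so p-values measure only the spread between these libraries. The identifiers of the table were not matched to gene names here, so neither the knockdown of *HDAC3* nor markers of any tissue were looked at. In whole larvae, fewer cells of a type and less RNA per cell cannot be told apart.

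*HDAC3* encodes a histone deacetylase, an enzyme that removes acetyl groups from histones and is generally linked to repression of transcription. A transcript that lies outside an annotation can be a protein-coding gene that the gene models missed, a long non-coding RNA, or an unannotated part of a neighboring gene, such as an extended untranslated region. Final instar larvae are a stage in which many genes of cuticle, digestion and hormone response are switched on or off in turn. The identity of the transcripts is not given in the table, so each one is described by its number, its position on the scaffolds of the table and its nearest annotated gene. The number is the running number that ends its identifier in the table, after a prefix shared by all of them.

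The 197 transcripts lay on 140 scaffolds. On 99 of these there was only 1 of them, and no scaffold held more than 6. In the table, 96 were on the plus strand and 101 on the minus strand. They were shorter than annotated genes of the same level, with a median summed exon length of 868 bases against 1375 bases and a median span on the scaffold of 1807 bases against 4485 bases. The shortest was 200 bases and the longest 11161 bases. In 37 of them (18.8%), the exon length equaled the span, so they were a single block without an intron, against 10.3% of the annotated genes of the same level. The other 160 were made of several blocks. These are descriptions of the gene models and carry no test.

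Each library held between 10084667 and 12389053 fragments on genes, and the median number of fragments per transcript and library was 169.5. The transcripts took 0.684%, 0.723% and 0.597% of the fragments in siNC replicates 1, 2 and 3. In siHDAC3 replicates 1, 2 and 3 they took 1.48%, 1.47% and 1.65%. All siHDAC3 libraries were thus above all siNC libraries. The same order was seen in the share of summed FPKM, which was 0.824% to 1.08% in siNC and 1.67% to 1.84% in siHDAC3. All 1121 transcripts outside the annotation took 0.6855% to 0.8542% of the fragments in siNC and 1.665% to 1.893% in siHDAC3. A share of a library also depends on all other genes. When each library was brought to an equal sum of FPKM, the median log2 change (siHDAC3 against siNC) was 0.68 over all genes compared below. It was 1.03 for the 191 transcripts of this list that were compared. The divisors that turn fragments into FPKM were 7.75e+06 to 9.72e+06 in siNC and 1.18e+07 to 1.68e+07 in siHDAC3, so the same FPKM stood for more fragments in siHDAC3 libraries. The median FPKM of the 197 transcripts, which carries the scaling between libraries made by the authors, was 12.3 to 15.1 in siNC and 13.2 to 15.4 in siHDAC3, and these ranges overlapped. The 5 most abundant transcripts held between 30.0% and 37.8% of the fragments of all 197 in every library, and without them the share was 0.388% to 0.476% in siNC and 0.914% to 1.15% in siHDAC3.

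**Figure D1:**
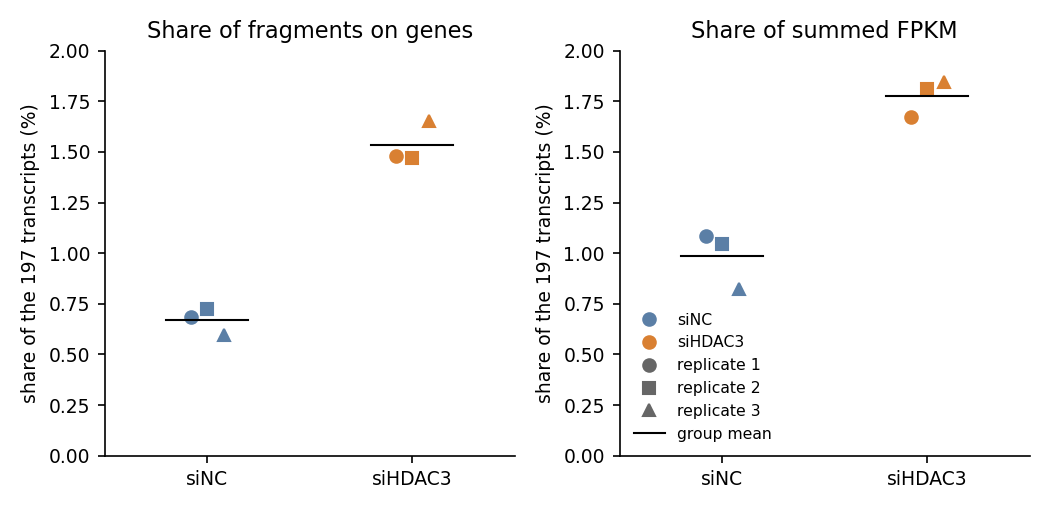
Share of the 197 transcripts in each library, as percent of fragments on genes (left) and as percent of summed FPKM (right). Points are libraries, with the shape giving the replicate number, and lines are group means (n = 3). In both plots the siHDAC3 libraries, at 1.47% or higher, lie above the siNC libraries, at 1.08% or lower.

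Most of these transcripts were moderately expressed. The mean over the 6 libraries was 50 FPKM or more for 34 of them and 100 FPKM or more for 18. The most abundant, transcript 825, is on KZ150162.1 from 86054 to 91384 on the plus strand and ranked 139 among all 18203 genes. It had 999.7, 814.8 and 948.5 FPKM in the siNC libraries and 980.6, 1424 and 1269 in the siHDAC3 libraries, from at least 10598 fragments in each library. The groups overlapped, and the log2 change of 0.40 (standard error 0.22) did not pass the test (limma, adjusted p = 0.279). Its nearest annotated gene, HaOG210729, lies 570 bases away on the opposite strand, where the 5′ ends of both face each other, and had between 4.83 and 16.7 FPKM.

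The next by abundance was transcript 410 on KZ149887.1 from 10629 to 34924, with 411.5, 520.1 and 535.9 FPKM in siNC and 376.5, 977.7 and 486.7 in siHDAC3. It was followed by transcript 686 on KZ150033.1 from 353753 to 355824, with 689.3, 656.1 and 199.9 FPKM in siNC and 393.0, 466.9 and 300.0 in siHDAC3. Both overlapped between groups. For transcript 410 the highest library was siHDAC3 replicate 2, and for transcript 686 the lowest was siNC replicate 3. Transcript 328, on KZ149860.1 from 343675 to 367564, lay between 225.3 and 456.4 FPKM over the 6 libraries. Transcript 157, on KZ149817.1 from 1817414 to 1818330, lay between 257.1 and 418.3. None of these 5 most abundant transcripts was called with the deposited values. When libraries were instead brought to an equal sum of FPKM, transcript 825 (log2 change 1.31, limma adjusted p = 0.00487), transcript 410 (1.12, adjusted p = 0.0347), transcript 328 (0.83, adjusted p = 0.0396) and transcript 157 (0.75, adjusted p = 0.027) were called higher. Under this scaling the median over all tested genes moved from -0.02 to 0.68 (log2). With quantile normalization, where that median was 0.27, only transcript 825 of the 5 was called higher (log2 change 1.33, limma adjusted p = 0.0091).

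siHDAC3 and siNC larvae were compared with limma on log2(FPKM + 1) for every gene that reached 0.5 FPKM in 3 or more of the 6 libraries, and p-values were adjusted over all 11093 genes tested. On this scale the change of low genes is understated. Of the 197 transcripts, 191 passed the filter and 6 did not. At an adjusted p under 0.05, 8 transcripts were called higher in siHDAC3 larvae (4.19% of those tested), and 4.04% of all tested genes were called higher. In the other direction, 19 were called lower (9.95%), and 11.1% of all tested genes were called lower. The level rule used the same group means as this comparison, so nothing is read from these shares. Among the 5539 annotated genes of the same level that were tested, 5.87% were called higher and 17.1% lower.

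The libraries of the groups did not overlap in 33 transcripts with siHDAC3 above (17.3%, against 16.5% of all tested genes) and in 46 with siHDAC3 below (24.1%, against 21.6% of all tested genes). All 27 called transcripts were among these. The median log2 change of the 191 tested transcripts was 0.17, where the median of all tested genes was -0.02 and that of annotated genes of the same level -0.14. The split between both directions moved with the scaling between libraries. Quantile normalization called 23 transcripts higher and 16 lower, where it called 9.09% of all tested genes higher and 9.17% lower and put their median at 0.27. An equal sum of FPKM called 63 higher and 15 lower, where 25.9% of all tested genes were called higher and 8.31% lower. With median-of-ratios scaling, 8 were higher and 19 lower, against 4.08% and 10.9% of all tested genes.

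**Figure D2:**
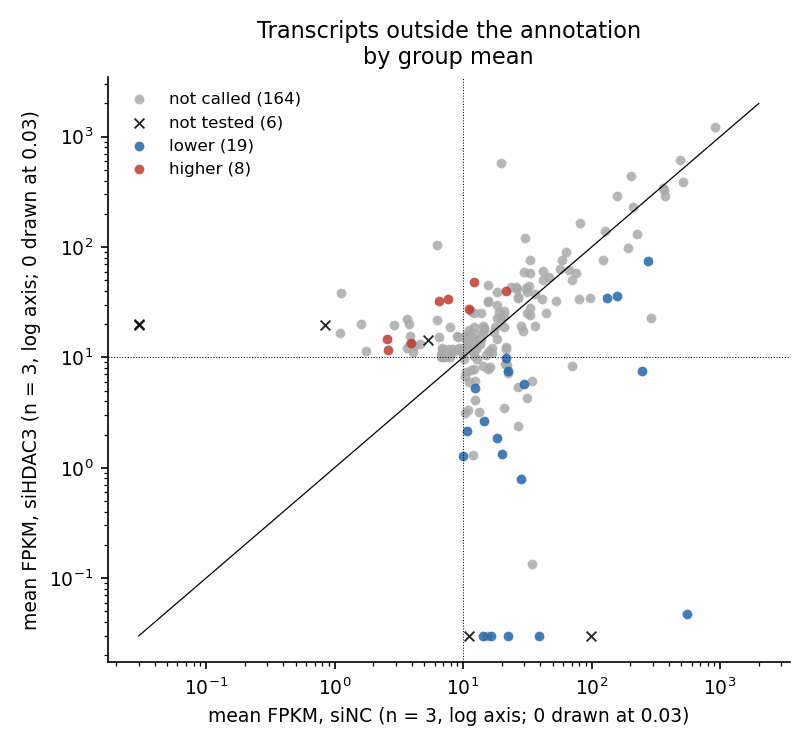
Mean FPKM of each of the 197 transcripts in siNC larvae (horizontal) and in siHDAC3 larvae (vertical), both on log axes, with means of 0 drawn at 0.03. Dotted lines mark 10 FPKM, the level that chose the transcripts, and the diagonal marks equal means. Colors give the limma call, with 8 higher, 19 lower, 164 not called and 6 not tested. Several blue points lie at the bottom edge, where no siHDAC3 library held a fragment.

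The level at which a transcript entered the list sorts these calls by construction. Among the 106 transcripts with at least 10 FPKM in both groups, 3 were called higher and 3 lower (2.83% each), and among the annotated genes of that kind 4.26% were higher and 9.62% lower. The 43 tested transcripts that reached the level in siNC larvae only held 16 of the 19 called lower. The 42 that reached it in siHDAC3 larvae only held 5 of the 8 called higher.

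The transcripts called lower included several that were lost from the siHDAC3 libraries altogether. Transcript 125, on KZ149812.1 from 2287580 to 2288760, had 55.5, 29.8 and 32.8 FPKM in siNC, from 144, 97 and 89 fragments, and no fragment in any siHDAC3 library. With up to 3 fragments allowed over the siHDAC3 group, it was at least 189-fold lower there (log2 change on the fitted scale -5.28, standard error 0.32, limma adjusted p = 0.000348). Transcript 854, on KZ150187.1 from 113463 to 120947, had 42.6, 13.7 and 10.8 FPKM in siNC and none in siHDAC3, and was at least 286-fold lower (limma adjusted p = 0.00343). Transcript 454, on KZ149903.1 from 812413 to 813237, had 25.1, 8.20 and 16.4 FPKM in siNC and none in siHDAC3, and was at least 107-fold lower (limma adjusted p = 0.00218). In all 3, the lowest siNC library held at least 36 fragments. The limits from 3 fragments cover counting error only.

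In all, 7 of the 197 transcripts had no fragment in the siHDAC3 group and 2 had none in the siNC group. Besides the 3 above, transcript 58 had 11.7, 11.9 and 19.4 FPKM in siNC and fell to no fragment (at least 97.9-fold lower, limma adjusted p = 0.000693). The remaining 3 were uneven among the siNC libraries. Transcript 70, on KZ149804.1 from 3097939 to 3098464, had 174.0 and 121.2 FPKM in siNC replicates 1 and 2 but 0.414 in replicate 3, from 1 fragment, and it did not pass the filter. Transcript 915 had 39.3, 0.515 and 6.17 FPKM in siNC (limma adjusted p = 0.124), and transcript 487 was seen in siNC replicate 3 only, with 33.2 FPKM. The 2 transcripts without a siNC fragment did not pass the filter either. Transcript 540 had 0.337, 21.5 and 37.5 FPKM in siHDAC3, and transcript 782 had 0, 8.21 and 52.3.

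Other falls left a measurable level. Transcript 591, on KZ149971.1 from 339584 to 342652, had 194.8, 241.7 and 309.0 FPKM in siNC and 8.18, 6.24 and 8.37 in siHDAC3. Its libraries were close within each group and far apart between groups (log2 change -4.84, standard error 0.25, limma adjusted p = 0.000249), and the call was kept with any library left out. The largest fall on the fitted scale was that of transcript 679, on KZ150030.1 from 26128 to 27582, with 1612, 30.3 and 15.5 FPKM in siNC and 0.141, 0 and 0 in siHDAC3. Its size rests on siNC replicate 1, which held 5262 fragments against 124 and 53 in the others (log2 change -6.49, standard error 1.63, limma adjusted p = 0.0438). It was called with siNC replicate 1 left out, but was no longer called with any of the other 5 libraries left out, and the adjusted p was 0.0708 without the filter and 0.304 with limma voom on recovered fragments. Log2 changes of the 19 called lower ranged from -6.49 to -1.04 (median -2.28).

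The transcripts called higher changed less. Log2 changes of the 8 ranged from 0.87 to 2.26 (median 1.80). Transcript 345, on KZ149865.1 from 617092 to 621022, had 6.33, 10.2 and 2.95 FPKM in siNC and 24.4, 35.7 and 36.9 in siHDAC3 (log2 change 2.26, standard error 0.42, limma adjusted p = 0.0173). Transcript 757, on KZ150080.1 from 51958 to 52577, rose from 3.95, 2.60 and 1.11 FPKM to 19.5, 10.2 and 14.1 (log2 change 2.18, standard error 0.41, limma adjusted p = 0.0178). Its siNC libraries held only 17, 14 and 5 fragments. Transcript 108, on KZ149810.1 from 444345 to 446431, rose from 6.84, 9.66 and 6.46 FPKM to 33.9, 28.2 and 39.5 (log2 change 2.02, standard error 0.26, limma adjusted p = 0.00476). This was the only one of the 8 that was called with each of the 6 libraries left out in turn.

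Transcript 249, on KZ149837.1 from 1192861 to 1193904, had 10.3, 10.3 and 16.1 FPKM in siNC and 27.5, 40.1 and 78.2 in siHDAC3 (log2 change 1.81, standard error 0.42, limma adjusted p = 0.0342). The call was kept in 1 of the 6 fits with a library left out, the one without siHDAC3 replicate 1, and was lost without the filter (limma adjusted p = 0.0509) and with limma voom (adjusted p = 0.063). Transcript 11, on KZ149798.1 from 5644573 to 5647799, had 3.48, 2.42 and 1.99 FPKM in siNC and 15.4, 9.01 and 10.7 in siHDAC3 (log2 change 1.80, standard error 0.31, limma adjusted p = 0.0132). Within siHDAC3 the range of log2(FPKM + 1) was 1.47 for transcript 249 and 0.71 for transcript 11, where the median of the 197 transcripts was 0.876.

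**Figure D3:**
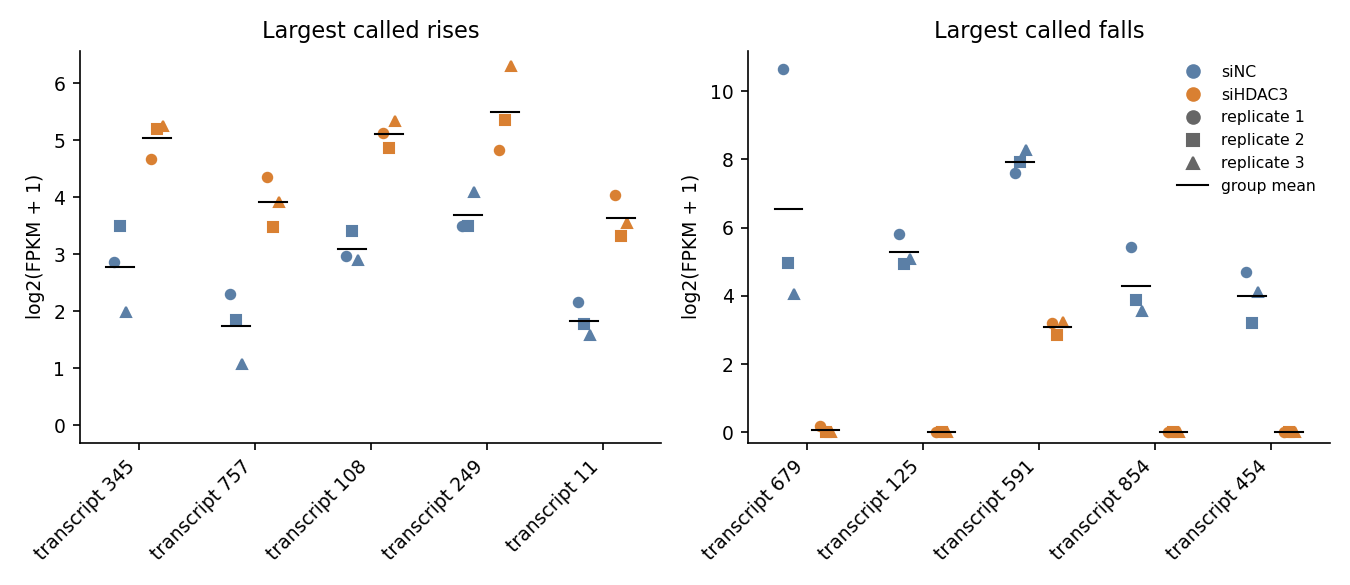
Values of log2(FPKM + 1) in each library for the 5 called rises (left) and the 5 called falls (right) with the largest log2 change. Shapes give the replicate number and lines the group means (n = 3). For the falls of transcript 125, transcript 854 and transcript 454, all siHDAC3 libraries lie at 0, and for transcript 679 siNC replicate 1 stands far above the other 2 siNC libraries.

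The other 3 rises were smaller. Transcript 537, on KZ149938.1 from 567058 to 575197, rose from 4.45, 4.15 and 3.28 FPKM to 10.03, 13.4 and 17.4 (log2 change 1.53). Transcript 544, on KZ149942.1 from 539466 to 549305, rose from 11.9, 10.4 and 10.9 FPKM to 26.7, 30.05 and 25.02 (log2 change 1.23). Transcript 307, on KZ149854.1 from 1210014 to 1213648, rose from 19.9, 21.6 and 23.0 FPKM to 40.9, 36.3 and 42.9 (log2 change 0.87), and its call was lost whichever library was left out. Transcript 537 and transcript 544 lay far from annotated genes, with the nearest at 49108 and 30342 bases. These and the falls of the next paragraph were named after their values were seen.

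Among the other falls, the most abundant were transcript 875 and transcript 765. Transcript 875, on KZ150209.1 from 5245 to 10526, fell from 291.0, 203.1 and 327.1 FPKM to 95.7, 76.3 and 53.6 (log2 change -1.86, standard error 0.30, limma adjusted p = 0.0101). Transcript 765, on KZ150087.1 from 271156 to 272772, fell from 184.3, 119.2 and 173.0 FPKM to 33.8, 44.0 and 30.5 (log2 change -2.10, standard error 0.26, limma adjusted p = 0.00414). Both calls were kept with any library left out. The annotated gene 22 bases from transcript 765 on the opposite strand, HaOG208819, had 5.404 to 9.44 FPKM in siNC and 8.19 to 22.4 in siHDAC3 and was not called. Transcript 1054, on KZ150465.1 from 11234 to 12704, fell from 38.0, 23.9 and 27.8 FPKM to 4.62, 9.20 and 3.25 (log2 change -2.28, limma adjusted p = 0.0121), and its same-strand neighbor HaOG214904, 2081 bases away, fell from 33.6, 47.8 and 44.1 FPKM to 6.31, 13.2 and 5.31 (log2 change -2.29, limma adjusted p = 0.00954). In both, siHDAC3 replicate 2 was the highest siHDAC3 library.

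The transcripts called lower were short. Their median exon length was 470 bases, and 14 of the 19 were under 600 bases, against 71 of all 197. Those called higher had a median of 2184.5 bases, and 1 of the 8 was under 600 bases. The 45 transcripts that reached 10 FPKM in siNC only, which hold 16 of the 19, had a median of 555 bases, called or not. The 46 that reached it in siHDAC3 only had a median of 955 bases. Length also sets how many fragments a given FPKM stands for, and its part in these calls was not tested.

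Leaving out 1 library gave from 2 to 11 transcripts called higher and from 10 to 18 called lower. Of all tested genes, 1.13% to 3.77% were called higher in these fits and 5.98% to 9.82% lower. Without siNC replicate 3, there were 2 higher and 10 lower, which is the lowest number in both directions, and over all tested genes the shares were lowest there too, at 1.13% higher and 5.98% lower. Without siHDAC3 replicate 3, there were 4 higher and 12 lower, with 1.51% and 6.21% of all tested genes. Of the 19 called lower, 10 were called in all 6 of these fits, and of the 8 called higher 1 was. How many of all called genes were kept in all 6 was not computed, so nothing is read from these counts. The calls of transcripts 757, 11 and 537 were lost without siNC replicate 3 and without siHDAC3 replicate 3, that of transcript 345 without siHDAC3 replicate 3, and those of transcripts 544 and 1054 without siNC replicate 3. Transcript 336 was called only in the fit without siHDAC3 replicate 2. Transcripts 302, 497, 531, 612, 751 and 1026, which complete the falls lost in some of these fits, had log2 changes between -2.84 and -1.04. Their neighbors were not called.

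The largest positive change did not pass the threshold. Transcript 138, on KZ149814.1 from 90178 to 92511, was singled out after its values were seen. It had 39.8, 1.06 and 18.4 FPKM in siNC and 84.0, 1082 and 581.1 in siHDAC3, a log2 change of 5.0 with a standard error of 1.34 (limma adjusted p = 0.0525). All siHDAC3 libraries were above all siNC libraries, but siNC replicate 2 and siHDAC3 replicate 1 stood apart from their groups. At the other end, transcript 524, on KZ149932.1 from 447730 to 450731, lay between 12.1 and 15.2 FPKM in all 6 libraries (log2 change -0.02, standard error 0.23). Transcript 752 lay between 13.5 and 20.9 FPKM (-0.03, standard error 0.27) and transcript 386 between 5.84 and 13.7 (0.02, standard error 0.36).

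The nearest annotated gene of each transcript was taken from the positions of the table, on either strand. Its median distance was 1010 bases. For annotated genes of the same level, the median distance to the nearest other annotated gene was 934 bases. An annotated gene lay within 5000 bases of 157 transcripts (79.7%), against 87.9% of these annotated genes, and the farthest was 85766 bases away. Only 8 transcripts overlapped an annotated gene, 4 on the same and 4 on the opposite strand, and none of these was called. The nearest gene was on the same strand for 83 (42.1%) and on the opposite strand for 114, and for annotated genes 39.1% were on the same strand. The most frequent arrangement was a transcript on the opposite strand beyond the 3′ end of its neighbor, so that both 3′ ends face each other. This was seen for 64 transcripts (32.5%), at a median distance of 538 bases, and for 26.6% of the annotated genes, at a median of 1057 bases. The sources used here do not say whether the counting used the strand, so where transcripts and genes overlap, their reads cannot be told apart.

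Changes of the transcripts and of their neighbors were set side by side with the nearest annotated gene that passed the filter. These genes come from the same libraries, so the values share depth and scaling. For 117 of the 191 tested transcripts (61.3%) the log2 change had the same sign as that of the neighbor. Among annotated genes of the same level and their nearest tested genes, the share was 57.4%. Split by distance, the same sign was seen in 70.1% of the 87 transcripts with a tested gene within 1000 bases, 65.2% of the 138 within 5000 bases and 50.9% of the 53 with a tested gene farther away. For annotated genes, the shares were 58.7%, 57.5% and 57.0%. Spearman's rho between the log2 changes, as a description over transcripts, was 0.41 within 1000 bases and 0.03 beyond 5000 bases. For annotated genes it was 0.22 within 1000 bases and 0.23 beyond 5000 bases. Transcripts whose 3′ end faced the 3′ end of the neighbor had the same sign in 41 of 59 (69.5%), and those whose 5′ end faced its 5′ end in 21 of 47 (44.7%). On the same strand, the sign was shared by 27 of 43 beyond the 3′ end (62.8%) and 24 of 36 before the 5′ end (66.7%). Annotated genes were not split this way. By strand alone, their share was 61.8% with a neighbor on the same strand and 54.5% with a neighbor on the opposite strand. For the transcripts these shares were 63.4% and 59.6%. No test was made of these shares.

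**Figure D4:**
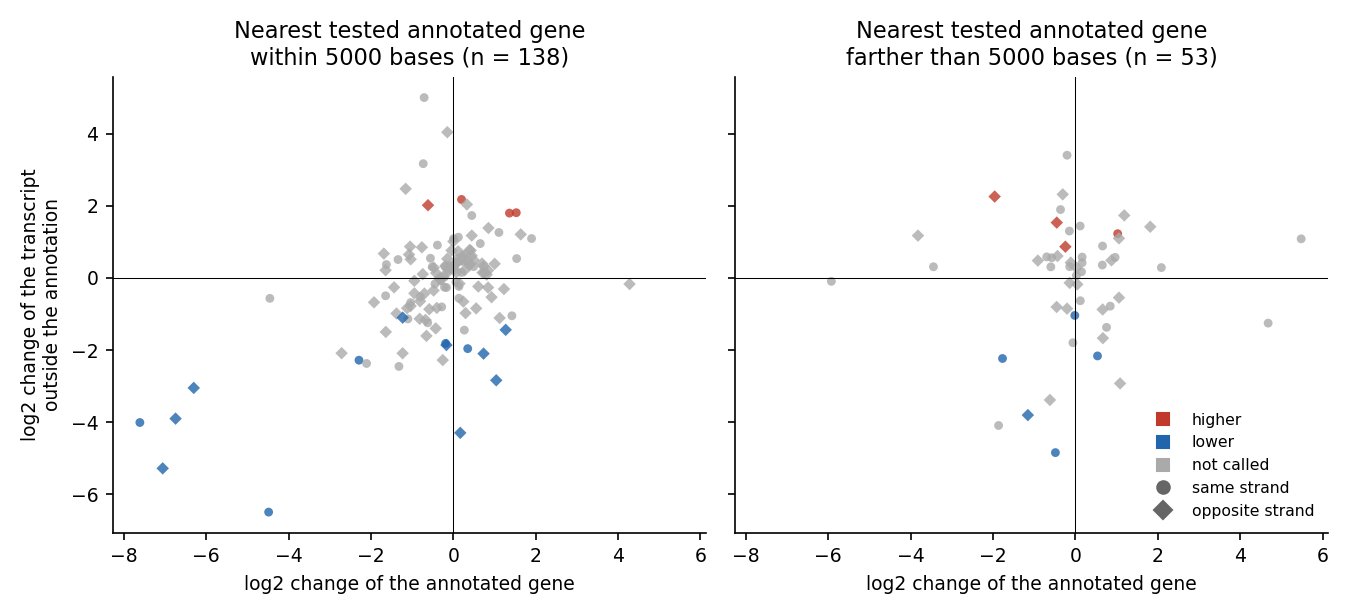
Log2 change of each tested transcript outside the annotation (vertical) against that of its nearest tested annotated gene (horizontal), for neighbors within 5000 bases (left, n = 138) and farther away (right, n = 53). Colors give the call of the transcript, and circles and diamonds the same and the opposite strand. In the left plot, 5 called falls lie at the lower left, with neighbors that changed by -4.48 or further.

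Of the 19 transcripts called lower, 9 had a nearest tested gene that was called lower too, 10 had one that was not called, and none had one called higher. Of the annotated genes of the same level that were called lower, 225 of 936 (24%) had a nearest tested gene called lower. In 5 of the 9, those of transcripts 125, 397, 454, 58 and 679, the log2 change of the neighbor was below -4. The neighbor of transcript 125 was HaOG203860, 330 bases away on the opposite strand. It had 140.3, 174.4 and 93.7 FPKM in siNC and no fragment in siHDAC3, so both were absent together. Transcript 397, on KZ149884.1 from 881285 to 882286, fell from 26.9, 26.3 and 7.35 FPKM to 0.709, 1.01 and 2.27 (log2 change -3.05, standard error 0.55, limma adjusted p = 0.015). HaOG216414, 264 bases away on the opposite strand, went from 160.2, 39.6 and 82.7 FPKM to 0, 0.0749 and 0.0409. The neighbor of transcript 454, HaOG202190, lies 842 bases away on the same strand and had 421.2, 89.8 and 203.9 FPKM in siNC and 0.0582, 0 and 0 in siHDAC3. In these pairs, siNC replicate 2 was the lowest siNC library of both transcript 454 and HaOG202190, while the siNC libraries of transcript 397 and HaOG216414 had different orders. So did those of transcript 125 and HaOG203860, where siNC replicate 2 was the lowest for transcript 125 and the highest for HaOG203860.

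Transcript 679 and its neighbor HaOG200804, 2888 bases away on the same strand, shared the high siNC replicate 1. HaOG200804 had 92.6, 15.99 and 12.9 FPKM in siNC and 0.975, 0 and 0 in siHDAC3. Transcript 336, on KZ149861.1 from 225596 to 229217, and HaOG214619, 283 bases away on the opposite strand, had log2 changes of -1.10 (standard error 0.25, limma adjusted p = 0.0327) and -1.23 (standard error 0.31, adjusted p = 0.0451). The call of transcript 336 was lost with quantile normalization (-0.89, limma adjusted p = 0.0527) and with an equal sum of FPKM (-0.30, limma adjusted p = 0.424). The untested transcript 70 lies 1642 bases from HaOG214384, which had 1050, 844.1 and 141.7 FPKM in siNC and 7.66, 0 and 1.62 in siHDAC3. Both were lowest in siNC replicate 3 within their group.

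Other falls stood beside a gene that was not called. HaOG211144, 1428 bases from transcript 854 on the opposite strand, had 94.6, 109.6 and 109.8 FPKM in siNC and 130.3, 109.3 and 114.0 in siHDAC3 (log2 change 0.17, standard error 0.19, limma adjusted p = 0.588), while transcript 854 was lost. HaOG205205, 5747 bases from transcript 591, had 12.2, 6.30 and 8.34 FPKM in siNC and 3.60, 8.92 and 6.15 in siHDAC3 (log2 change -0.49, standard error 0.39, limma adjusted p = 0.442). The levels of both genes overlapped between groups, and those of the transcripts did not.

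Of the 8 transcripts called higher, 2 had a nearest tested gene called higher, 5 had one that was not called and 1 had one called lower. Of the annotated genes of the same level that were called higher, 37 of 324 (11.4%) had a nearest tested gene called higher. These shares were not tested. HaOG211197, 1330 bases from transcript 249 on the same strand, rose from 22.7, 31.8 and 22.7 FPKM to 55.0, 77.8 and 99.6 (log2 change 1.53, standard error 0.29, limma adjusted p = 0.0181), with the highest siHDAC3 level in replicate 3 for both. HaOG201584, 3151 bases from transcript 11 on the same strand, rose from 3.79, 3.03 and 3.31 FPKM to 13.1, 8.22 and 9.95 (log2 change 1.36, standard error 0.27, limma adjusted p = 0.0222), and both were highest in siHDAC3 replicate 1. The nearest annotated gene of transcript 11, HaOG201582 at 1338 bases on the same strand, did not pass the filter. HaOG202821 lies 165 bases from transcript 108 and had 4.16, 4.5 and 3.98 FPKM in siNC and 3.29, 2.43 and 1.67 in siHDAC3 (log2 change -0.61, standard error 0.28, limma adjusted p = 0.197). For transcript 345, the nearest annotated gene at 5078 bases, HaOG214912, did not pass the filter, and the nearest tested gene, HaOG214909, which was called lower, lies 157915 bases away.

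Some transcripts varied widely between libraries of the same group. The range of log2(FPKM + 1) within siNC was at least 3 for 21 transcripts (10.7%) and within siHDAC3 for 25 (12.7%). For annotated genes of the same level the shares were 5.34% and 7.91%. Their median number of fragments was higher, 384 against 169.5. The part of depth in this was not tested. The widest range was that of transcript 445, on KZ149901.1 from 802809 to 812360, with 0, 521.7 and 87.7 FPKM in siNC and 286.2, 920.2 and 126.4 in siHDAC3. It had no fragment in siNC replicate 1 and 1455 in siNC replicate 2. Transcript 442, on KZ149900.1 from 700575 to 703200, had 281.1, 160.8 and 193.7 FPKM in siNC and 4.63, 58.8 and 627.7 in siHDAC3. Its siNC libraries were close, and its siHDAC3 libraries lay below, below and above them.

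In 9 transcripts (4.57%), 1 library of a group had no fragment while another of the same group had at least 10 FPKM, against 1.26% of the annotated genes of the same level. A pair of them overlap on KZ150099.1 on the minus strand, transcript 780 from 225135 to 229541 and transcript 781 from 227948 to 229085. Transcript 780 had 98.7, 1.67 and 111.9 FPKM in siNC and 12.4, 0 and 12.6 in siHDAC3. Transcript 781 had 0, 16.1 and 0 FPKM in siNC and 0, 42.8 and 0 in siHDAC3. In both groups, the library numbered 2 thus held transcript 781 and little or none of transcript 780, and the libraries numbered 1 and 3 held the reverse. Because the exons of both may share reads, their levels are uncertain. Of the others, transcript 316 and transcript 72 had no fragment in siHDAC3 replicate 1 but 16.7 and 54.4 FPKM, and 107.1 and 23.7 FPKM, in siHDAC3 replicates 2 and 3. Transcript 457 had 58.7 FPKM in siHDAC3 replicate 3 and at most 2.53 FPKM in any other library. These 3 were also singled out after their values were seen, as was transcript 700, on KZ150044.1 from 17777 to 18577. It was also at 0 in the libraries numbered 2, with 19.5, 0 and 13.9 FPKM in siNC and 21.1, 0 and 25.1 in siHDAC3. Over all tested genes, libraries of the same number did not deviate together, with correlations of -0.08, 0.07 and -0.01 for numbers 1, 2 and 3.

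**Figure D5:**
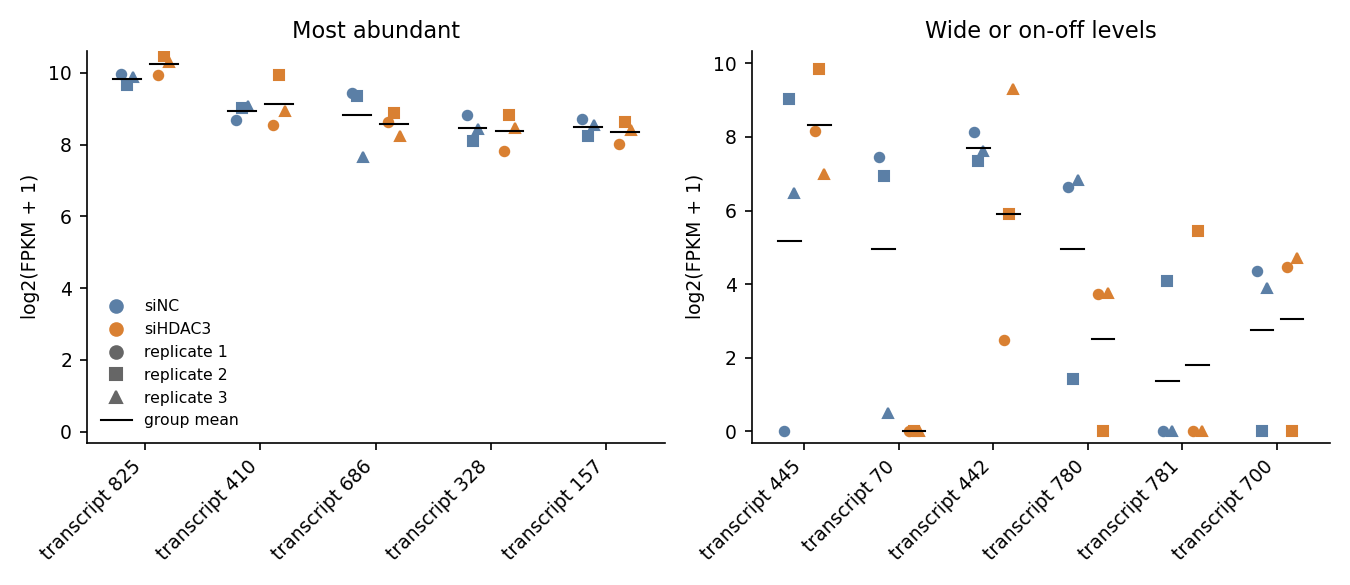
Values of log2(FPKM + 1) in each library for the 5 most abundant transcripts (left) and for transcripts with wide or on and off levels (right). Shapes give the replicate number and lines the group means (n = 3). On the left the groups overlap for each transcript. On the right transcript 781 is above 0 only in the libraries drawn as squares (replicate 2), and transcript 700 is at 0 in these.

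At the level of 10 FPKM, transcript 285 (10.01 FPKM in siHDAC3, on KZ149848.1) and transcript 697 (10.05 FPKM in siHDAC3, on KZ150039.1) were just inside, and transcript 815 (9.92 FPKM in siNC, on KZ150143.1) and transcript 994 (9.88 FPKM in siHDAC3, on KZ150353.1) were just outside. None of these 4 was called.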

How the data were processed

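RNA-seq of 3 siNC and 3 siHDAC3 libraries was used. The authors deposited 1 table of FPKM values, with gene position and summed exon length. The submitters' processing notes name Bowtie 0.12.2 and the builds mm8 and mm9, which are mouse builds, while the scaffolds of the table are not. The *H. armigera* build, the counting tool and the assembler of the transcripts outside the annotation are not stated in the sources used here. The columns named CK and siHA5 were taken as siNC and siHDAC3, the only groups of the series, and replicate numbers are those of the columns. Fragments were recovered from FPKM, length and 1 step per library (whole within 0.1 for all values). They differ from the divisors, so the deposited FPKM include a scaling between libraries.

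In R 4.3.3, limma 3.58.1 compared log2(FPKM + 1) between groups, allowing a trend of the variance, over genes that reached 0.5 FPKM in 3 or more of 6 libraries. p-values were adjusted after Benjamini and Hochberg. The method was tested on simulated data. With 3 libraries a group, the smallest p of an exact permutation test is 0.1. Of 18203 identifiers, 1 matched the reference gene table (assembly ASM3070526v1), and none of the 197 transcripts did. Named are the 5 largest rises and falls called without overlap, the 5 most abundant, the 3 least changed in both-group transcripts, the 3 widest ranges, the 2 on each side of the level, up to 3 called with or against a called neighbor, the closest pair, and up to 3 with no fragment in a group. Others named were chosen after their values were seen. The transcripts and lists were chosen with earlier results of these data known. Alternatives were other pseudocounts, filters, scalings, variance models, thresholds, distances and levels, the replicate block, and each library left out.
Transcripts are named by the running number of their identifiers.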

Additional observations from a re-analysis of the deposited data

How the results depend on the processing

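The number of transcripts called higher (8) and lower (19) stayed within 1.5 times with pseudocounts of 0.1 and 0.5, with median-of-ratios scaling, without a variance trend, with limma voom on recovered fragments and without a filter. Of all tested genes, 4.04% were higher and 11.1% lower in the main fit. Without a filter the shares were 2.01% and 6.46%, and with limma voom 2.9% and 8.92%. With the others, 3.96% to 4.16% were higher and 10.9% to 11.5% lower. Scaling to the sum of FPKM gave 63 higher, with 25.9% of all tested genes higher, and quantile normalization 23, with 9.09%. A filter of at least 1 FPKM in all 6 libraries, which removes transcripts absent from a group, gave 11 higher and 10 lower. Of all genes tested under this filter, 5.28% were higher and 8.98% lower. At an adjusted p under 0.01, 1 was higher and 7 were lower. The share of all tested genes at this threshold was not computed, so nothing is read from these counts. A level of 20 FPKM left 99 transcripts, of which 5 were higher and 12 lower. It used the main fit, where 4.04% of all tested genes were higher and 11.1% lower. With 1 library left out, from 2 to 11 were higher and from 10 to 18 lower, with 1.13% to 3.77% and 5.98% to 9.82% of all tested genes. With the replicate block, 5 were higher and 16 lower, with 1.60% of all tested genes higher and 7.69% lower. Transcripts 397 and 336 were not called with it. Transcript 780, not called in the main fit (limma adjusted p = 0.377), was called lower with the block (limma adjusted p = 0.0363). Over all tested genes, same-numbered libraries did not deviate together. This does not show whether libraries of the same number share a cohort, which was not tested.

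The share of transcripts whose nearest tested gene changed in the same direction was 61.3%, and 73.3% with scaling to the sum of FPKM, where most changes are positive. It ranged from 57.6% to 60.7% when a library was omitted. With scaling to the sum of FPKM, log2 changes near 0 or below turned positive for transcripts 328 (0.83), 157 (0.75), 686 (0.67), 524 (0.83) and 752 (0.83). With quantile normalization they did so for transcripts 328 (0.74), 157 (0.64), 686 (0.68), 524 (0.21) and 752 (0.20). Among 393 values of the 25 named and tested transcripts under the alternatives, 351 kept their direction and side of the threshold, or turned by less than the spread within groups. Of the others, 28 were no longer called, 7 were newly called, 2 of these with a turned sign, and 7 turned in sign without being called.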
